A study of Mus musculus with 12 samples.

Results

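Lumbar spinal cord from 3 mice that model amyotrophic lateral sclerosis (ALS) and were given phosphate-buffered saline (PBS) was compared with that of 3 healthy mice. The members were set by the mouse labels, P66, P67 and P74 for the model (group P, the PBS mice) and H1, H2 and H4 for the healthy mice (group H), which makes 6 of the 12 libraries of the series. RNA was read by poly(A) sequencing. In the series, the other 6 libraries came from mice of the same model given manganese-doped carbon dots (C) or a drug read as edaravone (E), and here they only add to the estimate of spread. The healthy mice are described as wild type, and PBS was fed to the model mice as the negative control. The sources used here do not give the strain, transgene, sex and age of the model, the disease stage or whether the healthy mice also received PBS. Each number marks a separate mouse, so n = 3 per group throughout.

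In ALS, motor neurons of the cord and brain degenerate, their axons withdraw from muscle, and the surrounding glia react. Microglia, the resident phagocytes of the cord, take up debris and change their surface receptors, lysosomes and secreted signals, while astrocytes enlarge their filaments and secrete protease inhibitors and complement. Whole tissue holds all these cells at once, so fewer cells of a type and less RNA per cell cannot be told apart in any of the values below.

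A library held 17917100 to 19657600 recovered reads, which may be single reads or fragments of a pair and came to 107% to 108% of the total that the authors' values are scaled to. Levels are FPKM (reads per kilobase of exon, scaled to that total), which are set per length and can be compared between genes. Values are listed in the order H1, H2 and H4 and P66, P67 and P74. A difference is P minus H on the scale of log2(FPKM + 1), followed by its standard error, with adjusted p from limma over 18118 tested genes, and it understates changes of genes with low levels. A gene passed at an adjusted p of 0.05. Neuron, oligodendrocyte and astrocyte scores (mean log2(FPKM + 1) of the marker list) were at least 5.64 in every library, which shows neural tissue and not the level of the cord. The rostral Hox score was 3.33 to 3.79.

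Some libraries stood apart before any comparison. H1 carried skeletal muscle RNA, with muscle scores of 7.003, 3.67 and 1.53 in the healthy mice and 0.57, 0.92 and 3.29 in the PBS mice. Acta1, the actin of skeletal muscle, had 796, 46.9 and 6.25 FPKM in H and 1.25, 3.23 and 35.3 FPKM in P. Hox genes of groups 10 to 13, which mark the caudal cord, had scores of 1.67, 1.31 and 0.32 in the healthy mice and 0.86, 2.09 and 2.55 in the PBS mice, so H4 and P66 were lowest. Hoxd10, a gene of the lumbar level, had 7.29, 3.94 and 0.0319 FPKM in H and 0.351, 11.6 and 18.8 FPKM in P. The low caudal Hox levels of H4 and P66 go against the lumbar label of those pieces. Schwann cell markers, which report nerve root, had scores of 3.13, 2.68 and 2.37 in the healthy mice and 3.52, 3.76 and 3.50 in the PBS mice. In the Schwann score every PBS mouse lay above every healthy mouse. Of the 14 Schwann markers 4 rose (median 0.81), against 12.2% of all tested genes, and their part in the differences below was not tested. The muscle and caudal Hox marker levels differed from mouse to mouse, and their part was not tested beyond the fits given with them.

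**Figure D1:**
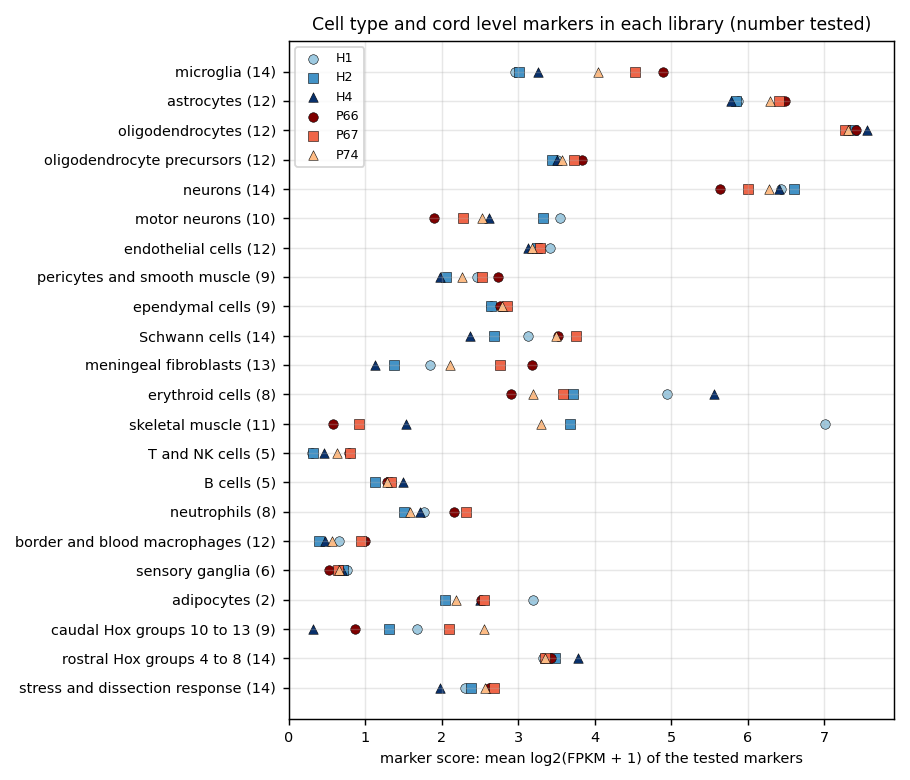
Marker scores (horizontal axis, mean log2(FPKM + 1) of the tested markers of each list) of the 6 libraries, with healthy mice in blue and PBS mice in red to orange. Microglial markers sat between 2.96 and 3.26 in the healthy mice and between 4.04 and 4.89 in the PBS mice, while skeletal muscle ranged from 0.57 in P66 to 7.003 in H1.

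On the first principal component of the 6 libraries (61.9% of the variance) the healthy mice lay at -34.1, -28.6 and -18.7 and the PBS mice at 45.0, 28.1 and 8.37. The second component (21%) separated H1 at 28.5 from H4 at -29.6. Pairs of libraries within a group correlated at 0.976 to 0.990 across genes.

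Among passing genes whose groups did not overlap, phagocyte genes made up most of the largest rises, and genes of blood, motor neurons and muscle most of the largest falls in PBS mice. Of 18118 tested genes 2216 rose and 591 fell, which is 15.5% in all, 12.2% higher and 3.26% lower, and 2.31% rose and 0.182% fell at least 2-fold. The median difference of all tested genes was 0.07. In 26.4% of tested genes every PBS mouse lay above every healthy mouse, and in 8.88% below. Of the 2807 genes that passed, 2760 did not overlap between the groups. A lack of overlap, given for single genes below, is thus shared by nearly all genes that passed. The number of genes that passed was 933 without P66, 1122 without H2, 1270 without P67 and 289 without H1 and H4 together. Under median-ratio scaling, which shifts all differences by a median of -0.09, 1396 genes rose and 1230 fell, so the split between rises and falls depends on the scaling.

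**Figure D2:**
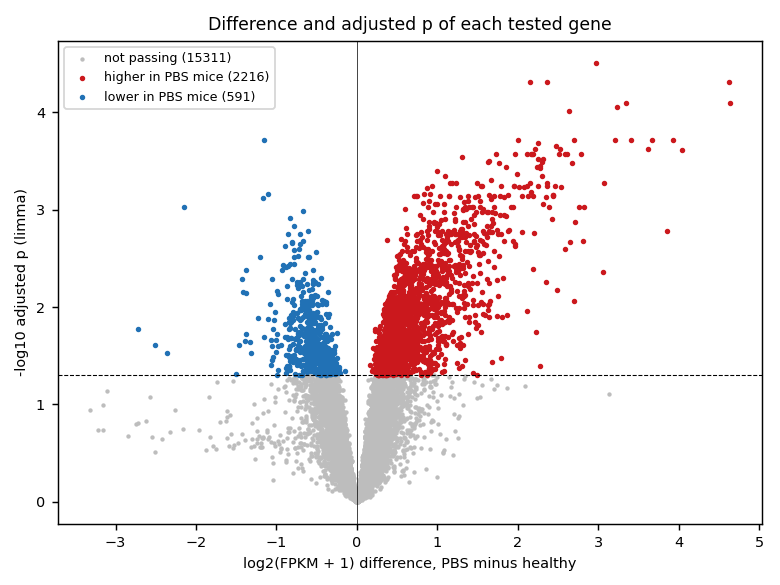
Difference (horizontal axis, log2(FPKM + 1), PBS minus healthy) and -log10 adjusted p (vertical axis, limma) of each of the 18118 tested genes, with 2216 higher genes in red and 591 lower genes in blue. The dashed line marks an adjusted p of 0.05, and rises reach further than falls.

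Cst7, which encodes a cystatin-type inhibitor of cysteine proteases, rose most on this scale. It had 0.0604, 0.0553 and 0.704 FPKM in the healthy mice and 46.7, 32.4 and 17.6 FPKM in the PBS mice (log2 difference 4.64 ± 0.34, adjusted p = 7.95e-05). With limma-voom on recovered reads its difference was 7.41 and that of Mmp12, described below, 7.87. Each PBS mouse was far above each healthy mouse, and the PBS mice ranked P66, P67 and P74. Clec7a, the receptor Dectin-1, had 0.248, 0.331 and 0.46 FPKM in H and 55.2, 31.1 and 19.2 FPKM in P (log2 difference 4.62 ± 0.31, adjusted p = 4.83e-05), with the same ranking. Itgax encodes CD11c, an integrin chain of phagocytes (GRCm38, ENSMUSG00000030789, chromosome 7, 128129547 to 128150657), and had 0.199, 0.0454 and 0.12 FPKM in H and 17.7, 11.1 and 6.43 FPKM in P (log2 difference 3.41 ± 0.30, adjusted p = 0.00019). The healthy values of these 3 genes were all below 1 FPKM. Gpnmb, a membrane glycoprotein of lipid-laden phagocytes, had 0.366, 0.335 and 0.204 FPKM in H and 31.5, 22 and 7.87 FPKM in P (log2 difference 3.85 ± 0.51, adjusted p = 0.00164). Lgals3, galectin-3, had 1.25, 0.763 and 0.809 FPKM in H and 36.2, 29.1 and 12 FPKM in P (log2 difference 3.66 ± 0.33, adjusted p = 0.00019). In both genes P74 was well below the other PBS mice and still above every healthy mouse.

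The remaining rises among the 12 largest, apart from Ccl3, were in genes that the healthy cord already expressed. Lyz2, lysozyme of myeloid cells (ENSMUSG00000069516, chromosome 10, 117277331 to 117282321), had 15.5, 9.41 and 11.9 FPKM in H and 311, 283 and 111 FPKM in P (log2 difference 4.04 ± 0.38, adjusted p = 0.000245). Cd68, a lysosomal membrane protein of phagocytes, had 3.65, 3.43 and 5.01 FPKM in H and 96.4, 65.6 and 34 FPKM in P (log2 difference 3.61 ± 0.34, adjusted p = 0.000237). Fcrls and Mpeg1, both genes of microglia, had 3.96, 4.18 and 4.91 FPKM in H and 71.7, 53 and 31.3 FPKM in P (log2 difference 3.23 ± 0.25, adjusted p = 8.84e-05) and 5.94, 7.21 and 9.31 FPKM in H and 114, 80.8 and 47.8 FPKM in P (log2 difference 3.20 ± 0.29, adjusted p = 0.00019). No PBS mouse overlapped a healthy one in any of these, as the choice of the 12 largest rises required. The chemokine gene Ccl3 had 0.467, 0.641 and 0.68 FPKM in H and 22.7, 16.3 and 9.29 FPKM in P (log2 difference 3.34 ± 0.26, adjusted p = 7.95e-05). Serpina3n, a protease inhibitor of reactive astrocytes, had 31.2, 27.2 and 21 FPKM in H and 669.8, 446 and 233 FPKM in P (log2 difference 3.93 ± 0.35, adjusted p = 0.00019), and Vim, vimentin, had 16.6, 11.4 and 12.2 FPKM in H and 188, 137 and 64.1 FPKM in P (log2 difference 3.07 ± 0.34, adjusted p = 0.000536). Again P66 was highest and P74 lowest among the PBS mice. Lyz2 and Serpina3n have near-identical relatives, so their division of reads is uncertain.

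**Figure D3:**
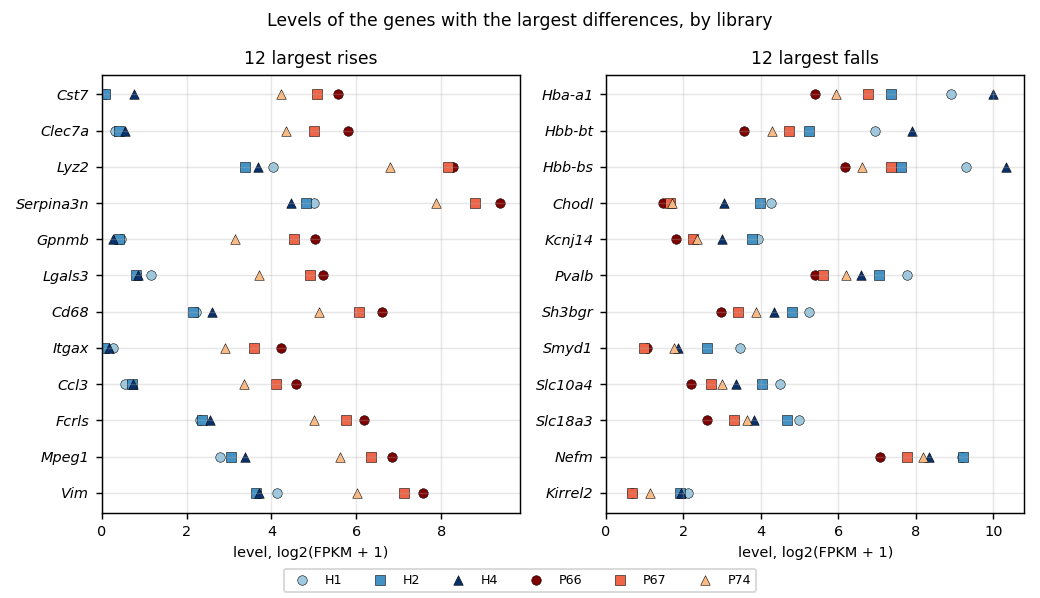
Levels, log2(FPKM + 1), of the 12 genes with the largest rises (left) and the 12 with the largest falls (right) in each library. No gene overlaps between groups, as the choice required; among the rises the PBS mice rank P66, P67 and P74, whereas the healthy values of the falling genes are themselves spread, with H4 often nearest to the PBS mice.

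The PBS mice differed among themselves in a graded way. Among the 2216 genes that rose, 1633 (73.7%) had the order P66 above P67 above P74, against 21.7% of genes that did not pass. Among the 591 genes that fell, 385 (65.1%) had the reverse order, against 24.9%. P74 was the PBS mouse nearest to the healthy mean in 1852 of the 2216 genes that rose and in 417 of the 591 that fell. It was also nearest in 7246 of the 15311 genes that did not pass and in 9515 of all 18118 tested genes. The genes are not independent, and these counts describe 3 mice. The caudal Hox score ran the other way, lowest in P66 and highest in P74, and the muscle score was highest in P74. Their part in the grading was not tested. 6 passing genes separated P74 most from the other PBS mice. Ccn5, a matricellular protein gene, had 0.031, 0.199 and 0.0601 FPKM in H and 11, 5.69 and 0.856 FPKM in P. Hpgd, which degrades prostaglandins, had 5.7, 5.25 and 7.25 FPKM in H and 76.7, 40.1 and 17.9 FPKM in P. Fmod, fibromodulin of connective tissue, had 3.79, 2.1 and 1.59 FPKM in H and 58.2, 26.8 and 12.6 FPKM in P. Ccn1, another matricellular gene, had 5.11, 1.59 and 1.38 FPKM in H and 20.6, 11.5 and 4.75 FPKM in P and overlapped between the groups, with H1 above P74. Gpnmb and Lyz2 were the other two. The threshold was missed, at the log2 differences given, by Ccn5 (2.23) without H1, Ccn5 (2.34) and Ccn1 (1.61) without H2, Ccn5 (2.25) and Ccn1 (1.54) without H4, Ccn5 (1.69) and Ccn1 (1.34) without P66 and Ccn5 (2.11) and Ccn1 (1.73) without P67. Also below the threshold were Ccn5 and Ccn1 with the muscle score as a covariate and Ccn5 and Ccn1 with the 6 libraries alone.

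**Figure D4:**
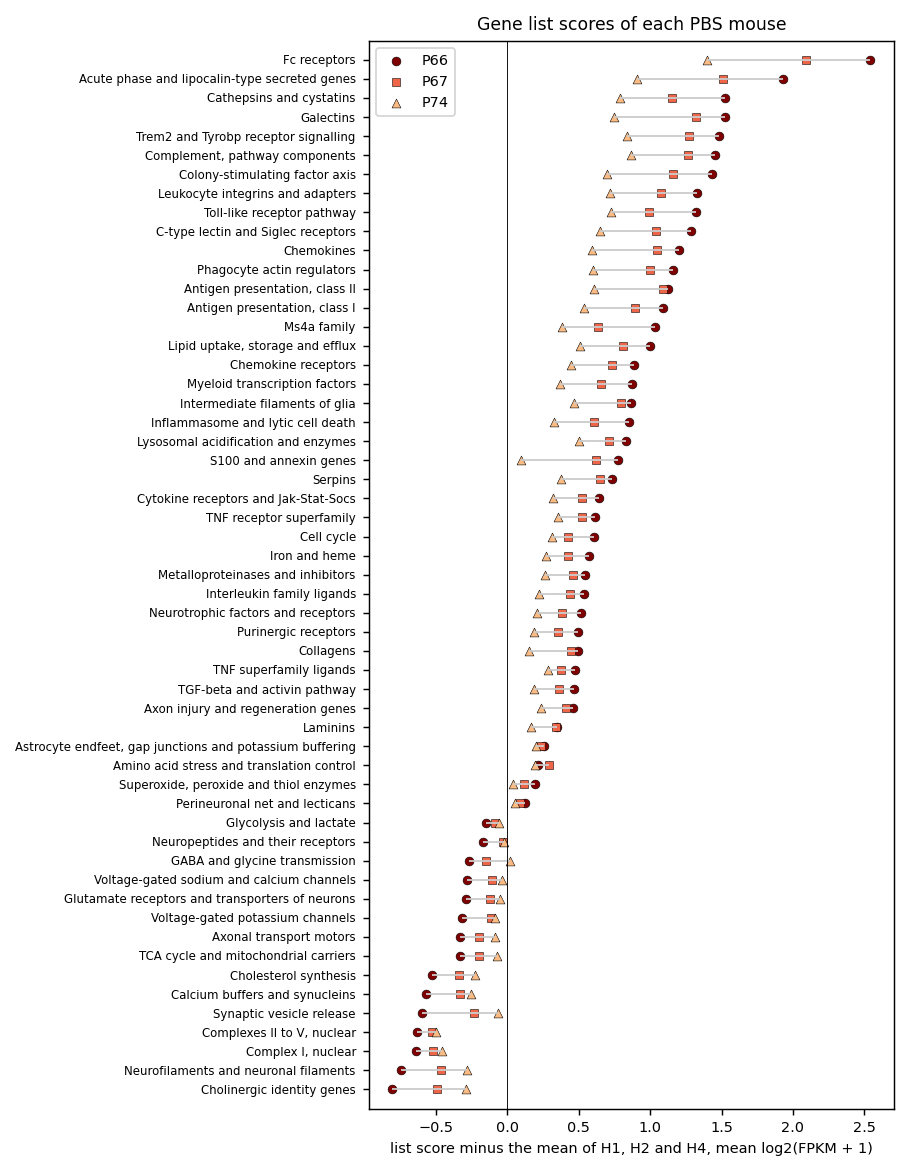
Score of each gene list (tested members averaged as log2(FPKM + 1)) in each PBS mouse minus the mean of H1, H2 and H4. P66 is farthest from the healthy mean and P74 nearest in every list but amino acid stress. Glial lists lie on the positive side, respiratory chain lists on the negative side, and neuronal lists mostly on the negative side, except that the neurotrophic and axon injury lists are positive and P74 is at 0.021 in GABA and glycine transmission.

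Receptors that pass debris, antibody and lectin signals into phagocytes rose together. All 7 tested Fc receptor genes rose (median 2.29), against 12.2% of all tested genes. So did 15 of 18 genes of the Trem2 and Tyrobp pathway (median 1.18), a lipid-sensing receptor and its adapter. Microglial markers moved with them, as 13 of 14 rose with scores of 2.96, 3.01 and 3.26 in the healthy mice and 4.89, 4.52 and 4.04 in the PBS mice, and their part in the result was not tested. Trem2 had 1.81, 2.07 and 2.82 FPKM in H and 20.5, 16.1 and 10.1 FPKM in P (log2 difference 2.32 ± 0.24, adjusted p = 0.000302). Ptpn6, also on the list, encodes the inhibitory phosphatase SHP-1 and had 1.36, 0.954 and 1.75 FPKM in H and 11.1, 8.54 and 5.46 FPKM in P (log2 difference 1.96 ± 0.22, adjusted p = 0.000564). Every PBS mouse exceeded every healthy mouse in both genes. Fcgr2b, the inhibitory Fc gamma receptor, had 0.484, 0.594 and 0.559 FPKM in H and 18.5, 10.6 and 4.7 FPKM in P (log2 difference 2.82 ± 0.36, adjusted p = 0.000933) and Fcgr3, an activating one, had 5.77, 4.65 and 7.96 FPKM in H and 44, 35.5 and 23.6 FPKM in P (log2 difference 2.29 ± 0.24, adjusted p = 0.00032). Fcer1g, the signalling chain of the activating receptor, had 4.29, 6.93 and 8.07 FPKM in H and 55, 34.8 and 22.2 FPKM in P (log2 difference 2.31 ± 0.29, adjusted p = 0.00088). The adapter genes Dok2 (0.22) and Dok3 (0.03) and the signalling gene Card9 (0.56) did not pass. All 7 Fc receptor genes and 16 of the 18 pathway genes had the order P66, P67, P74. Passing in other fits were Dok2 (0.31 without P74) and Card9 (0.72 without P74 and 0.70 with the caudal Hox covariate).

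Pattern receptors for microbial and damaged molecules followed. In the Toll-like receptor pathway 15 of 21 genes rose (median 0.79), against 12.2% of all tested genes. Tlr2, which senses lipoproteins, had 1.36, 0.977 and 1.52 FPKM in H and 12.8, 8.62 and 6.19 FPKM in P (log2 difference 2.11 ± 0.21, adjusted p = 0.000267), and its partner Cd14 had 2.05, 1.74 and 2.83 FPKM in H and 13, 12.6 and 8.87 FPKM in P (log2 difference 1.96 ± 0.20, adjusted p = 0.000268). Cd180, a relative of Tlr4, had 0.489, 0.302 and 0.218 FPKM in H and 9.85, 5.34 and 3.69 FPKM in P (log2 difference 2.37 ± 0.27, adjusted p = 0.000564). P66 stood above P67 and P74 in each. The flagellin receptor gene Tlr5 (-0.03) and the co-receptor gene Ly96 (0.31) did not pass. In the C-type lectin, Siglec and CD300 families 15 of 21 genes rose (median 0.86). Cd33, an inhibitory Siglec, had 0.974, 0.955 and 1.18 FPKM in H and 5.88, 3.72 and 3.03 FPKM in P (log2 difference 1.32 ± 0.18, adjusted p = 0.00134), and Lilrb4a, an inhibitory receptor with close relatives, had 0.0912, 0.0209 and 0.0443 FPKM in H and 4.9, 3.26 and 1.33 FPKM in P (log2 difference 1.89 ± 0.27, adjusted p = 0.00162). Of the Ms4a membrane proteins 5 of 9 rose (median 0.58), led by Ms4a6d with 0.412, 0.692 and 0.767 FPKM in H and 8.69, 4.92 and 3.15 FPKM in P (log2 difference 1.94 ± 0.29, adjusted p = 0.0021). Healthy levels of that gene were low and the PBS mice did not overlap them. For the lectin and Siglec list the members passing numbered 9 without H2 or P66 or P67. For the Ms4a family the members passing numbered 1 without H2 or P66, 2 without P67. The Ms4a family had a median of 0.35 without P66.

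Adhesion receptors and growth factor receptors of the myeloid lineage rose as well. Of 15 integrin and adapter genes 12 rose (median 0.61), against 12.2% of all tested genes. Itgb2, the beta chain of CD11b and CD11c, had 2.56, 1.91 and 2.75 FPKM in H and 26.9, 20.1 and 13.9 FPKM in P (log2 difference 2.61 ± 0.25, adjusted p = 0.000267), and Itgb5, part of a receptor for matrix and dying cells, had 25.9, 20.7 and 20.6 FPKM in H and 67.2, 60.1 and 42.4 FPKM in P (log2 difference 1.28 ± 0.19, adjusted p = 0.0019). The T cell integrin gene Itgb7 (0.12) and the platelet integrin gene Itgb3 (0.19) did not pass. In the colony-stimulating factor axis 6 of 8 genes rose (median 1.15). Csf1r, on which microglia depend for survival, had 17.6, 17.1 and 18.4 FPKM in H and 67.7, 54.9 and 39.4 FPKM in P (log2 difference 1.53 ± 0.20, adjusted p = 0.000932), and its ligand Csf1 had 12.7, 9.94 and 10.2 FPKM in H and 31.1, 24.9 and 17.5 FPKM in P (log2 difference 1.07 ± 0.19, adjusted p = 0.00493). The second ligand, Il34, a product of neurons, had 5.51, 6.66 and 8.97 FPKM in H and 6.27, 7.97 and 7.36 FPKM in P and did not pass (0.04 ± 0.15). The groups overlapped in Il34 and not in Csf1. The largest difference of the axis was in Csf3r, the granulocyte factor receptor, with 3.52, 2.28 and 3.06 FPKM in H and 23.7, 17.6 and 11.5 FPKM in P (log2 difference 2.19 ± 0.22, adjusted p = 0.000268).

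Purinergic receptors, which sense released nucleotides, moved in both directions. 8 of 19 rose and 2 fell (median 0.28), where 12.2% of all tested genes rose and 3.26% fell. P2ry6, which drives phagocytosis in response to UDP, had 0.95, 0.756 and 0.561 FPKM in H and 4.52, 4.61 and 2.89 FPKM in P (log2 difference 1.498 ± 0.17, adjusted p = 0.000531), and Gpr34, a lysophosphatidylserine receptor of microglia, had 3.91, 4.38 and 5.37 FPKM in H and 22.6, 14.7 and 10.9 FPKM in P (log2 difference 1.57 ± 0.20, adjusted p = 0.000978). By contrast P2ry12, the receptor by which resting microglia extend processes, had 8.68, 8.68 and 12.9 FPKM in H and 21.3, 14.2 and 12.5 FPKM in P (log2 difference 0.60 ± 0.19, adjusted p = 0.0471), and P74 lay below H4. Tmem119, another marker of resting microglia, had 7.41, 7.56 and 9.52 FPKM in H and 12, 10.3 and 8.18 FPKM in P and did not pass (0.28 ± 0.16), with P74 between the healthy mice. The neuronal channel gene P2rx5 fell, with 8.51, 8.63 and 5.75 FPKM in H and 4.04, 4.36 and 5.06 FPKM in P (log2 difference -0.64 ± 0.13, adjusted p = 0.0109), as did P2rx6 with 6.37, 6.27 and 4.85 FPKM in H and 3.54, 3.5 and 5.17 FPKM in P (log2 difference -0.44 ± 0.13, adjusted p = 0.0475). Of the transcription factors of myeloid cells 14 of 23 rose (median 0.47), led by Irf8 with 0.819, 0.889 and 0.82 FPKM in H and 8.63, 5.81 and 3.79 FPKM in P (log2 difference 1.88 ± 0.23, adjusted p = 0.000701) and Irf5 with 1.44, 1.2 and 1.83 FPKM in H and 6.88, 5.32 and 4.03 FPKM in P (log2 difference 1.35 ± 0.17, adjusted p = 0.000933). Spi1, which encodes PU.1, a regulator of the lineage, had 0.708, 0.81 and 1.46 FPKM in H and 6.45, 5.41 and 3.1 FPKM in P (log2 difference 1.56 ± 0.22, adjusted p = 0.00165), and the lysosomal regulators Mitf (0.10) and Tfeb (0.16) did not pass. For the purinergic receptors the members passing numbered 5 without H2 or P66. For the transcription factors the members passing numbered 8 without H2 or P66 or P67, 9 without H4. The purinergic receptors had a median of 0.17 without H4. Some calls depended on 1 library, and those lost were P2ry12 (0.52) and P2rx6 (-0.38) without H1, P2ry12 (0.52), P2rx5 (-0.55) and P2rx6 (-0.39) without H2, P2ry12 (0.39), P2rx5 (-0.58) and P2rx6 (-0.37) without P66 and P2ry12 (0.67) and P2rx6 (-0.36) without P67. Further calls were missed by P2ry12, P2rx5 and P2rx6 with the muscle score as a covariate and by P2ry12 and P2rx6 with the 6 libraries alone. P2ry12 also missed the threshold under median-ratio scaling, and P2ry12 and P2rx6 with a filter of 0.5 FPKM. A call was gained by Tmem119 (0.47 with the caudal Hox covariate).

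Promoter sequences of genes that rose were searched for motifs named for their regulators, as a description of the letters only. RefSeq promoters (GRCm38.p6, 250 bases before to 50 after a gene's start, on the gene's strand) matched 12730 tested genes, and 11 motifs were searched on both strands. Motif shares, here and below, count only genes with a promoter in the searched set. Other tested genes, including members of the lists, are absent from them. The motifs, the genes shown and the comparison were chosen after the values were seen. GAGGAAGT, a PU.1-type ETS motif, was in the promoters of 95 of 1673 genes that rose (5.68%) and 7 of 432 that fell (1.62%). Among genes that rose at least 2-fold it was in 33 of 311 (10.6%). It was also in 3 of 25 promoters (12%) of the cholesterol synthesis list, described below, where 19 of 36 tested genes fell. The motif was in 446 of the 12730 matched tested genes (3.50%) and 3.69% of the 27025 genes in the searched set. The 3 promoters below belong to genes that rose and hold it (capitals, on the opposite strand, ACTTCCTC). Ctss encodes cathepsin S (chr3:95526536-95526835, plus strand), C1qc a chain of complement C1q (chr4:136892865-136893164, minus strand) and Mmp12 macrophage elastase (chr9:7344147-7344446, plus strand).
Ctss: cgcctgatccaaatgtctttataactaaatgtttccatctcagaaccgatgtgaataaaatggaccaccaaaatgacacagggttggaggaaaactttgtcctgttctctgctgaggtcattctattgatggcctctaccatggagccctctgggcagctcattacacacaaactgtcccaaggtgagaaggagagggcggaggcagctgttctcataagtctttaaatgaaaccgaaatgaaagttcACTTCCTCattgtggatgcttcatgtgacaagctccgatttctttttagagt
C1qc: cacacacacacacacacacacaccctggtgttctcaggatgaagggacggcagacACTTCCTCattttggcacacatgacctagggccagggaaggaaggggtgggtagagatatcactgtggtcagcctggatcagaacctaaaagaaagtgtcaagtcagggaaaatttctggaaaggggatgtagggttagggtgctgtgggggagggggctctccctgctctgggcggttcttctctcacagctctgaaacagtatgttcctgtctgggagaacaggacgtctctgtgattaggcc
Mmp12: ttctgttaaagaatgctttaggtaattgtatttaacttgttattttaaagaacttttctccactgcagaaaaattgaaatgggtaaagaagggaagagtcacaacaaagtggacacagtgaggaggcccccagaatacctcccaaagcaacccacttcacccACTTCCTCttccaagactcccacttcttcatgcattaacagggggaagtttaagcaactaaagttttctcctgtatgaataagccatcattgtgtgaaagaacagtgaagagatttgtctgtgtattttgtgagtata
In Ctss the match starts 2 bases before the annotated gene start, in C1qc 195 bases and in Mmp12 88 bases before it. Ctss had 48.5, 53.3 and 77.8 FPKM in H and 499.7, 331 and 212 FPKM in P (log2 difference 2.46 ± 0.28, adjusted p = 0.000569), C1qc had 14.3, 12.6 and 18.5 FPKM in H and 121, 93.2 and 54.9 FPKM in P (log2 difference 2.43 ± 0.29, adjusted p = 0.000701) and Mmp12 had 0.0329, 0 and 0 FPKM in H and 2.79, 2.18 and 1.15 FPKM in P (log2 difference 1.55 ± 0.20, adjusted p = 0.00105). The other motifs were in 14.5% of the promoters of 2-fold risen genes against 6.48% of tested genes for TGANTCA (AP-1), 10.9% against 3.71% for the ISRE motif, 12.5% against 8.22% for GGGNNTTCC (NF-kappaB) and 2.89% against 1.48% for TTCCNGGAA (STAT). They were in 2.25% against 1.41% for TCACNCCAC (SRE), 36.3% against 42.4% for CCAAT (NF-Y), 0.965% against 1.91% for TCACGTGA (CLEAR), 1.29% against 3.29% for TGACGTCA (CRE), 0.643% against 1.99% for the NRF1 motif and 0 against 0.306% for TTGCGCAA (CEBP). TCACNCCAC and the other motifs can overlap one another, and no test was run.

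Many genes of lysosomal proteases and of other enzymes that degrade ingested material rose. Of the cathepsins and their inhibitors 11 of 18 rose (median 0.92), against 12.2% of all tested genes. Ctsd, the main aspartic protease of lysosomes, had 56.9, 55 and 55 FPKM in H and 346, 266 and 159.5 FPKM in P (log2 difference 2.12 ± 0.24, adjusted p = 0.000569), and Ctsz had 28.4, 25.9 and 30.1 FPKM in H and 184, 146 and 81 FPKM in P (log2 difference 2.17 ± 0.26, adjusted p = 0.000649). The groups were widely separated, since the lowest PBS value exceeded the highest healthy one in both genes. The osteoclast protease gene Ctsk (-0.21) and the abundant inhibitor gene Cst3 (0.33) did not pass. Among 40 genes of lysosomal enzymes and acidification 20 rose (median 0.44). Grn, progranulin, had 14.3, 13.8 and 14.7 FPKM in H and 106, 75.2 and 48.1 FPKM in P (log2 difference 2.27 ± 0.24, adjusted p = 0.000369), Laptm5 had 7.87, 7.17 and 8.89 FPKM in H and 58.5, 46.2 and 27.5 FPKM in P (log2 difference 2.27 ± 0.24, adjusted p = 0.000355), and Slc11a1, a metal exporter of the phagosome, had 0.869, 0.766 and 0.968 FPKM in H and 10.6, 7.89 and 5.25 FPKM in P (log2 difference 2.21 ± 0.21, adjusted p = 0.000237). Of the vacuolar ATPase subunits, Atp6v0d2, a form enriched in phagocytes, had 0, 0.0201 and 0 FPKM in H and 3.18, 2.33 and 0.606 FPKM in P (log2 difference 1.49 ± 0.34, adjusted p = 0.0164), whereas the broadly used subunits Atp6v1a (-0.28), Atp6v1b2 (-0.33) and Atp6v0d1 (-0.06) did not pass. TCACGTGA, the CLEAR motif of lysosomal genes, was in 4 of 31 promoters of this list (12.9%) against 1.91% of tested genes and 1.12% of all genes, and the promoter of Ctsd (chr7:142387778-142388077, minus strand) holds it 99 bases before the start.
Ctsd: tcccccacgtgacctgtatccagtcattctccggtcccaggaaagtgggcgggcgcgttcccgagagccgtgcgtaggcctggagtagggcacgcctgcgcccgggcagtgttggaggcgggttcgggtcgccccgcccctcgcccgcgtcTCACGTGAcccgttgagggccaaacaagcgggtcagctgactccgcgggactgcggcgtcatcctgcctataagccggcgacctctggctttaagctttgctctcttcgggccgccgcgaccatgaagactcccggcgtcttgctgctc
Calls lost, with the log2 difference that remained, were Atp6v0d2 (1.495) without H2, Atp6v0d2 (1.20) without P66 and Atp6v0d2 (1.36) without P67. In other fits the threshold was missed by Atp6v0d2 with the muscle score as a covariate. Conversely, calls were gained by Atp6v1a (-0.39 without P74 and -0.38 with the caudal Hox covariate) and Atp6v1b2 (-0.45 without P74, -0.49 with the caudal Hox covariate and -0.44 under median-ratio scaling).

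Genes that take up, store and export lipid rose in part. 16 of 33 rose and 3 fell (median 0.49), where 12.2% of all tested genes rose and 3.26% fell. Abca1, the cholesterol exporter, had 4.56, 4.29 and 4.49 FPKM in H and 23.2, 15.1 and 12.2 FPKM in P (log2 difference 1.67 ± 0.18, adjusted p = 0.000499). Clu, clusterin, had 222, 197 and 194 FPKM in H and 672, 551 and 415 FPKM in P (log2 difference 1.39 ± 0.18, adjusted p = 0.000933). PBS mice were above healthy mice in both genes. The fatty acid binder Fabp3 of muscle and neurons fell, with 52.4, 27.2 and 27.8 FPKM in H and 14.1, 15.1 and 21.4 FPKM in P (log2 difference -0.997 ± 0.24, adjusted p = 0.0189), as did the lipid droplet coat gene Plin3, with 42.1, 36.6 and 41.3 FPKM in H and 32.4, 32.9 and 32.3 FPKM in P (log2 difference -0.29 ± 0.09, adjusted p = 0.0421). Lpl, lipoprotein lipase, had 11.9, 1.12 and 1.02 FPKM in H and 20.6, 13.5 and 7.59 FPKM in P, a difference of 1.87 ± 0.62 that missed the threshold (adjusted p = 0.0683), with H1 far above the other healthy mice. Of the galectins 4 of 7 rose (median 0.43). Besides Lgals3, the binding protein gene Lgals3bp had 7.01, 6.61 and 7.44 FPKM in H and 73.6, 43.7 and 32.1 FPKM in P (log2 difference 2.58 ± 0.39, adjusted p = 0.00251), and Lgals1 (0.30) did not pass. Of 26 regulators of the phagocyte's actin skeleton 17 rose (median 0.78), led by the myosin gene Myo1f with 0.825, 0.744 and 0.742 FPKM in H and 9.6, 7.39 and 4.66 FPKM in P (log2 difference 2.17 ± 0.21, adjusted p = 0.000267) and the capping gene Capg with 1.7, 1.79 and 1.01 FPKM in H and 16, 15.8 and 8.72 FPKM in P (log2 difference 2.51 ± 0.25, adjusted p = 0.000268). Evl (-0.06) and Elmo1 (-0.08), also on the list, did not pass. For the lipid list the members passing numbered 11 without H2 or P67, 10 without P66. The threshold was missed, at the log2 differences given, by Plin3 (-0.25) without H1, Plin3 (-0.35) without H2, Plin3 (-0.26) without H4, Fabp3 (-0.89) and Plin3 (-0.29) without P66, Fabp3 (-0.93) and Plin3 (-0.29) without P67 and Plin3 (-0.28) without P74. Calls were also lost by Fabp3 and Plin3 with the muscle score as a covariate and by Fabp3 and Plin3 with the 6 libraries alone. Plin3 also missed the threshold with the caudal Hox covariate. Passing in other fits was Lpl (2.75 without H1 and 2.62 with the muscle covariate).

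Antigen presentation genes of both classes rose. In class I, which displays peptides from inside the cell, 13 of 20 rose (median 0.78), against 12.2% of all tested genes. B2m, the shared light chain, had 80.5, 101 and 114 FPKM in H and 585, 358 and 268 FPKM in P (log2 difference 1.96 ± 0.30, adjusted p = 0.00238), and H2-K1, a classical heavy chain, had 13.1, 13.2 and 13.5 FPKM in H and 57.9, 43.2 and 32.7 FPKM in P (log2 difference 1.64 ± 0.30, adjusted p = 0.00564). Erap1, which trims the peptides, had 1.58, 1.47 and 1.32 FPKM in H and 3.63, 2.97 and 2.75 FPKM in P (log2 difference 0.74 ± 0.11, adjusted p = 0.00209). The proteasome genes Psmb10 (-0.02) and Psme2 (0.04) did not pass. In class II, which displays ingested material, 8 of 13 rose (median 0.86). Cd74, the invariant chain, had 2.37, 0.928 and 1.48 FPKM in H and 17.8, 20.2 and 8.97 FPKM in P (log2 difference 2.65 ± 0.39, adjusted p = 0.00214), with P67 above P66. Cd86, a costimulator of T cells, had 0.57, 0.521 and 0.379 FPKM in H and 5.34, 3.46 and 1.98 FPKM in P (log2 difference 1.56 ± 0.24, adjusted p = 0.00212), whereas the costimulators Cd80 (-0.01) and Cd40 (0.07) and the class II regulator Ciita (0.05) did not pass. Of the T and NK cell markers 5 of 13 could be tested and 2 rose. The summed level of all 13 was 1.67 to 2.74 FPKM in H and 5.24 to 7.28 in P, and their part in the result was not tested. H2 genes have near-identical relatives. For class I the members passing numbered 7 without H2, 5 without P66, 6 without P67. For class II the members passing numbered 5 without H2 or P67, 3 without P66.

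Complement, the cascade that tags cells and synapses for removal, rose from its first component to its receptors. 17 of 27 genes rose (median 1.02), against 12.2% of all tested genes. C4b had 19.1, 17.6 and 16.1 FPKM in H and 184, 149.5 and 108 FPKM in P (log2 difference 2.97 ± 0.18, adjusted p = 3.08e-05), and shares sequence with C4a. The receptor gene C3ar1 had 0.498, 0.406 and 0.699 FPKM in H and 11.6, 7.95 and 5.07 FPKM in P (log2 difference 2.53 ± 0.24, adjusted p = 0.000237). C1qa, the chain that starts the classical pathway, had 32.4, 33.7 and 43.7 FPKM in H and 304, 241 and 136 FPKM in P (log2 difference 2.54 ± 0.30, adjusted p = 0.000583). None of the PBS mice overlapped the healthy mice in these genes. The membrane regulators Cd55 (-0.24) and Cd59a (-0.07), which restrain the cascade, did not pass, nor did properdin, Cfp (-0.13). Of 32 listed genes the others were too low to test.

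Chemokines of phagocytes rose. Of 21 tested chemokine genes 9 rose (median 0.46), against 12.2% of all tested genes. Ccl6 had 1.29, 1.31 and 1.48 FPKM in H and 19.5, 17.6 and 8.36 FPKM in P (log2 difference 2.69 ± 0.24, adjusted p = 0.00019), Ccl4 had 0.181, 0.0827 and 0.175 FPKM in H and 9.4, 5.41 and 3.83 FPKM in P (log2 difference 2.58 ± 0.26, adjusted p = 0.000268), and Ccl9 had 0.861, 0.555 and 0.931 FPKM in H and 6.03, 5.26 and 3.07 FPKM in P (log2 difference 1.67 ± 0.21, adjusted p = 0.000767). Together with Ccl3 these are products of microglia and macrophages, and each separated the groups completely. The neuronal chemokine gene Cx3cl1 (-0.12) and the stromal gene Cxcl12 (0.10) did not pass. Of 15 chemoattractant receptor genes 7 rose (median 0.41). Cx3cr1, the fractalkine receptor of microglia, had 9.23, 8.22 and 12.3 FPKM in H and 43.9, 33.7 and 22.1 FPKM in P (log2 difference 1.61 ± 0.22, adjusted p = 0.00146), and C5ar1 had 0.464, 0.488 and 0.27 FPKM in H and 3.02, 2.56 and 1.92 FPKM in P (log2 difference 1.31 ± 0.18, adjusted p = 0.00157). Ccr2, which marks blood monocytes, had 0.273, 0.0161 and 0.197 FPKM in H and 0.352, 0.239 and 0.174 FPKM in P and did not pass (0.11 ± 0.11). The chemokines had a median of 0.72 without H1 and 0.74 without P74.

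Several cytokine ligands rose from low levels. 9 of 17 tested interleukin family ligands rose (median 0.48), against 12.2% of all tested genes. 26 ligands were listed and the others were too low to test. Clcf1, a ligand of the ciliary neurotrophic factor receptor, had 0.722, 0.837 and 1.32 FPKM in H and 5.21, 4.22 and 2.55 FPKM in P (log2 difference 1.32 ± 0.22, adjusted p = 0.00368), and Il33, an alarmin of glia, had 52.2, 52 and 50.7 FPKM in H and 99.5, 79.6 and 82.6 FPKM in P (log2 difference 0.74 ± 0.15, adjusted p = 0.00877). Il1a, a product of microglia, had 0.302, 0 and 0.205 FPKM in H and 1.73, 1.69 and 0.566 FPKM in P (log2 difference 0.96 ± 0.21, adjusted p = 0.0126), and Il1rn, the antagonist of its receptor, had 0.0108, 0.0591 and 0.0104 FPKM in H and 0.566, 0.469 and 0.287 FPKM in P (log2 difference 0.48 ± 0.11, adjusted p = 0.0174). All 3 PBS mice exceeded the healthy mice in the 4 genes, while Il1a, Il1rn, Il1b and Tnf stayed below 2 FPKM in every library. Il18 had 18.7, 20.5 and 26.9 FPKM in H and 24.3, 21.6 and 17.8 FPKM in P and did not pass (-0.05 ± 0.15). Of their receptors and the Jak-Stat-Socs genes 22 of 40 rose (median 0.48). Socs3, the feedback inhibitor, had 0.701, 0.509 and 0.44 FPKM in H and 5.995, 4.54 and 2.26 FPKM in P (log2 difference 1.70 ± 0.27, adjusted p = 0.00264), Osmr, the oncostatin M receptor, had 0.836, 0.558 and 0.559 FPKM in H and 5.81, 4.22 and 2.05 FPKM in P (log2 difference 1.53 ± 0.25, adjusted p = 0.00292), and Il10rb had 0.955, 1.02 and 1.14 FPKM in H and 4.2, 3.57 and 2.29 FPKM in P (log2 difference 1.07 ± 0.16, adjusted p = 0.00233). Stat2 (0.57) did not pass. For the interleukin ligands the members passing numbered 3 without H2 or P67, 2 without P66. For the receptor list the members passing numbered 14 without H2 or P67, 10 without P66. Some calls depended on 1 library, and those lost were Il1a (0.85) without H2, Il1a (0.82) and Il1rn (0.42) without P66 and Il1a (0.83) and Il1rn (0.47) without P67. Also below the threshold were Il1a and Il1rn with the muscle score as a covariate.

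In the tumour necrosis factor system 10 of 19 receptors (median 0.52) and 5 of 10 ligands (median 0.43) rose. Of all tested genes 12.2% rose. Tnfrsf1a, the main receptor for TNF, had 6.51, 5.26 and 4.84 FPKM in H and 26.3, 22.8 and 14.1 FPKM in P (log2 difference 1.72 ± 0.23, adjusted p = 0.00108), and Tnfrsf1b, its microglial counterpart, had 1.61, 1.7 and 2.17 FPKM in H and 6.89, 5.75 and 3.65 FPKM in P (log2 difference 1.16 ± 0.19, adjusted p = 0.00331). Tnf itself had 0.0727, 0 and 0 FPKM in H and 0.813, 0.422 and 0.215 FPKM in P (log2 difference 0.52 ± 0.13, adjusted p = 0.0261). Tnfsf8 had 0.141, 0.0716 and 0.121 FPKM in H and 1.71, 1.06 and 0.85 FPKM in P (log2 difference 0.97 ± 0.20, adjusted p = 0.0103). Ligand levels were low beside those of the receptors. Of the inflammasome and lytic death genes 13 of 21 rose (median 0.60). Casp1, the protease of the complex, had 1.27, 1.46 and 1.66 FPKM in H and 6.23, 4.85 and 3.54 FPKM in P (log2 difference 1.23 ± 0.16, adjusted p = 0.000939), and the sensor gene Naip2 had 0.295, 0.315 and 0.298 FPKM in H and 2.77, 2.32 and 1.21 FPKM in P (log2 difference 1.22 ± 0.18, adjusted p = 0.00179), with Naip5 and Naip6 as close relatives that also rose (1.32 ± 0.22 and 0.82 ± 0.14). The executioners of necroptosis, Ripk3 (0.19) and Mlkl (0.17), did not pass. For the TNF receptors the members passing numbered 6 without P66. For the TNF ligands the members passing numbered 3 without H1, 1 without H2 or P66, 2 without H4 or P67. For the inflammasome list the members passing numbered 8 without H2 or P66. Calls lost, with the log2 difference that remained, were Tnf (0.50) without H2, Tnf (0.50) without H4, Tnf (0.36) and Tnfsf8 (0.81) without P66 and Tnf (0.54) without P67. Further calls were missed by Tnf with the muscle score as a covariate and by Tnf with the 6 libraries alone.

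Most cell cycle genes rose, and some genes of TGF-beta signalling. In the TGF-beta and activin pathway 7 of 33 rose (median 0.23), against 12.2% of all tested genes. Tgfbr1 had 4.44, 5.24 and 6.19 FPKM in H and 23.4, 17.3 and 12.4 FPKM in P (log2 difference 1.54 ± 0.18, adjusted p = 0.000569), Tgfbr2 had 3.17, 2.08 and 2.68 FPKM in H and 10.8, 8.43 and 6.02 FPKM in P (log2 difference 1.35 ± 0.19, adjusted p = 0.00171), and Tgfb1 had 1.14, 1.23 and 0.78 FPKM in H and 4.45, 4.06 and 2.05 FPKM in P (log2 difference 1.10 ± 0.20, adjusted p = 0.00551). The bone morphogenetic protein genes Bmp4 (0.46), Bmp6 (0.68) and Bmp7 (0.63) did not pass. Of 40 cell cycle genes 28 rose (median 0.42). Ccnd1, a G1 cyclin, had 4.16, 4.25 and 2.91 FPKM in H and 13.9, 12.1 and 8.79 FPKM in P (log2 difference 1.39 ± 0.20, adjusted p = 0.00184) and Ccnd2 had 2.14, 2.1 and 2.25 FPKM in H and 6.2, 5.57 and 4.72 FPKM in P (log2 difference 1.03 ± 0.13, adjusted p = 0.000726). Genes of dividing cells also rose, at lower levels. Top2a had 0.297, 0.157 and 0.167 FPKM in H and 2.19, 1.15 and 1.05 FPKM in P (log2 difference 1.002 ± 0.16, adjusted p = 0.00327) and Mki67 had 0.391, 0.173 and 0.247 FPKM in H and 1.77, 1.2 and 0.959 FPKM in P (log2 difference 0.85 ± 0.14, adjusted p = 0.00364). The groups did not overlap in these 4 genes. The inhibitor gene Cdkn1a (-0.49) did not pass. For the TGF-beta list the members passing numbered 4 without H2 or H4 or P66 or P67, 11 without P74. For the cell cycle the members passing numbered 11 without H2, 9 without P66, 15 without P67. Genes that gained a call were Bmp6 (1.03 without P74 and 1.06 with the caudal Hox covariate) and Cdkn1a (-0.66 without H2 and -0.60 under median-ratio scaling).

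Reactive astrocyte genes rose. Gfap, the astrocyte filament, had 398, 332 and 486 FPKM in the healthy mice and 2112, 1918 and 1121 FPKM in the PBS mice (log2 difference 2.05 ± 0.25, adjusted p = 0.000724). Nes, nestin, had 4.16, 2.71 and 1.74 FPKM in H and 8.45, 8.62 and 4.46 FPKM in P (log2 difference 1.08 ± 0.31, adjusted p = 0.0382), and the muscle filament gene Des (-1.75) did not pass. In all, 3 of 6 glial filament genes rose (median 0.60), against 12.2% of all tested genes. Of the acute phase and secreted genes 13 of 17 rose (median 1.45). A2m, a protease trap, had 9.56, 9.58 and 7.91 FPKM in H and 83.2, 65.1 and 42 FPKM in P (log2 difference 2.64 ± 0.21, adjusted p = 9.61e-05). Cd109, a surface relative of it, had 0.665, 0.522 and 0.738 FPKM in H and 9.96, 6.19 and 4.18 FPKM in P (log2 difference 2.18 ± 0.21, adjusted p = 0.000267). Aspg, an asparaginase, had 1.56, 1.66 and 1.41 FPKM in H and 15.7, 11.8 and 7.15 FPKM in P (log2 difference 2.24 ± 0.24, adjusted p = 0.000368), and Timp1, an inhibitor of metalloproteinases, had 1.21, 1.17 and 0.847 FPKM in H and 22.1, 13.2 and 7.29 FPKM in P (log2 difference 2.76 ± 0.35, adjusted p = 0.000933). The order P66, P67, P74 held in 16 of the 17 genes. Haptoglobin, Hp (0.03), did not pass. Astrocyte markers had scores of 5.87, 5.85 and 5.78 in the healthy mice and 6.48, 6.41 and 6.29 in the PBS mice, and 6 of 12 rose. The threshold was missed, at the log2 differences given, by Nes (1.07) without H2, Nes (0.86) without H4, Nes (0.95) without P66 and Nes (0.94) without P67. In other fits the threshold was missed by Nes with the muscle score as a covariate and by Nes with the 6 libraries alone. Nes also missed it under median-ratio scaling, with the caudal Hox covariate, with limma-voom and without a filter on low values.

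Other secreted and calcium-binding genes of glia were mixed. Of the serpins 9 of 18 rose and 1 fell (median 0.48), where 12.2% of all tested genes rose and 3.26% fell. Serping1, the C1 inhibitor, had 5.02, 2.37 and 1.62 FPKM in H and 28.9, 19.4 and 10.6 FPKM in P (log2 difference 2.35 ± 0.42, adjusted p = 0.00557), and Serpine2 had 36.1, 35.6 and 32.3 FPKM in H and 59.3, 47.9 and 45 FPKM in P (log2 difference 0.53 ± 0.11, adjusted p = 0.00884). Serpinb1a, an inhibitor of neutrophil proteases, fell, with 16.8, 20.8 and 16.8 FPKM in H and 10.7, 11.2 and 13.3 FPKM in P (log2 difference -0.58 ± 0.14, adjusted p = 0.0173). Of S100 and annexin genes 6 of 18 rose (median 0.28). Anxa3 had 3.98, 4.55 and 4.49 FPKM in H and 26.7, 19 and 10.4 FPKM in P (log2 difference 1.79 ± 0.26, adjusted p = 0.00179) and S100a6 had 4.18, 4.95 and 7.02 FPKM in H and 36.9, 24.1 and 11.5 FPKM in P (log2 difference 1.86 ± 0.39, adjusted p = 0.012), whereas S100b, the classical astrocyte member, had 448, 470.1 and 604 FPKM in H and 458, 398 and 366 FPKM in P and did not pass (-0.31 ± 0.15). Of genes of astrocyte endfeet, gap junctions and potassium buffering 8 of 23 rose (median 0.19). Aqp4, the water channel of endfeet, had 83.5, 90 and 83.2 FPKM in H and 395, 272 and 217 FPKM in P (log2 difference 1.73 ± 0.17, adjusted p = 0.000268), and its neighbour gene product Mlc1 had 76.4, 79.5 and 74 FPKM in H and 143, 132 and 113 FPKM in P (log2 difference 0.74 ± 0.11, adjusted p = 0.00181). Gja1, connexin 43, had 37.4, 42.5 and 37.2 FPKM in H and 64, 58.1 and 57.7 FPKM in P (log2 difference 0.61 ± 0.09, adjusted p = 0.00153). The healthy and PBS values did not overlap in these 3 genes. The glutamate transporter gene Slc1a2 had 172, 192 and 159 FPKM in H and 205, 191 and 199.6 FPKM in P and did not pass (0.19 ± 0.09), nor did the potassium channel gene Kcnj10 (0.07). For the serpins the members passing numbered 4 without H2 or P67, 6 without H4, 3 without P66. For the S100 and annexin list the members passing numbered 3 without H2 or P67, 1 without P66. Some calls depended on 1 library, and those lost were Serpinb1a (-0.49) without H2, Serpinb1a (-0.53) and S100a6 (1.495) without P66 and Serpinb1a (-0.56) without P67. Calls were also lost by Serpinb1a and S100a6 with the muscle score as a covariate.

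Some genes of the extracellular matrix changed, where 12.2% of all tested genes rose and 3.26% fell. Of 33 collagen genes 7 rose (median 0.30), and of 11 laminin genes 2 (median 0.29). Col12a1 had 0.967, 0.702 and 0.672 FPKM in H and 4.02, 3.51 and 2.72 FPKM in P (log2 difference 1.30 ± 0.13, adjusted p = 0.000284) and Col5a3 had 5.89, 4.14 and 3.74 FPKM in H and 13.8, 13.6 and 9.76 FPKM in P (log2 difference 1.26 ± 0.22, adjusted p = 0.00424). Lama5 had 1.73, 1.08 and 1.1 FPKM in H and 2.504, 2.79 and 2.05 FPKM in P (log2 difference 0.59 ± 0.13, adjusted p = 0.0145). The abundant fibroblast collagens Col1a1 (0.95), Col1a2 (0.56) and Col3a1 (0.62) did not pass. Meningeal fibroblast markers moved with the group, with scores of 1.85, 1.38 and 1.13 in the healthy mice and 3.18, 2.76 and 2.11 in the PBS mice, 3 of 13 rose, and their part in the result was not tested. Of metalloproteinases and inhibitors 14 of 28 rose and 1 fell (median 0.34). Mmp19 had 0.337, 0.293 and 0.164 FPKM in H and 4.77, 2.22 and 1.55 FPKM in P (log2 difference 1.52 ± 0.24, adjusted p = 0.00291), while Mmp9, which vulnerable motor neurons express, fell, with 5.02, 4.44 and 2.76 FPKM in H and 1.38, 1.86 and 1.68 FPKM in P (log2 difference -0.92 ± 0.15, adjusted p = 0.00374). In the perineuronal net, the coat of many neurons, 4 of 19 genes rose and 2 fell (median 0.02). Bcan, brevican, fell, with 104, 94.3 and 84.9 FPKM in H and 58.7, 67.4 and 75.7 FPKM in P (log2 difference -0.49 ± 0.11, adjusted p = 0.0158), and Tnc, tenascin C of reactive tissue, rose, with 0.491, 0.344 and 0.372 FPKM in H and 2.91, 2.03 and 1.17 FPKM in P (log2 difference 1.07 ± 0.24, adjusted p = 0.0147). Cd44, the hyaluronan receptor, had 1.72, 1.6 and 1.65 FPKM in H and 17.4, 10.6 and 5.23 FPKM in P (log2 difference 2.05 ± 0.29, adjusted p = 0.0017), and the aggrecan gene Acan (-0.69) did not pass. For the collagens the members passing numbered 3 without H2 or P66 or P67. For the laminins the members passing numbered 0 without H2 or P66 or P67, 1 without H4. For the metalloproteinase list the members passing numbered 7 without H2, 6 without P66, 8 without P67. For the perineuronal net the members passing numbered 2 without H2 or P66 or P67. The perineuronal net had a median of 0.03 without H1, 0.04 without H2, -0.03 without H4, -0.04 without P66, 0.001 without P67 and 0.09 without P74. Calls lost, with the log2 difference that remained, were Lama5 (0.52), Bcan (-0.48) and Tnc (1.04) without H2, Lama5 (0.57), Bcan (-0.39) and Tnc (0.87) without P66 and Lama5 (0.52), Bcan (-0.49) and Tnc (1.05) without P67. Also below the threshold were Bcan and Tnc with the muscle score as a covariate and Lama5 and Bcan with the 6 libraries alone. Conversely, a call was gained by Acan (-0.93 without H4, -0.86 without P74, -0.94 with the caudal Hox covariate and -0.77 under median-ratio scaling).

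Genes of large axons and of motor neurons fell. Of neurofilament and neuronal cytoskeleton genes 7 of 18 fell (median -0.48), against 3.26% of all tested genes lower. Nefm, the middle chain (ENSMUSG00000022054, chromosome 14, 68082590 to 68124846), had 580.0, 595 and 319.7 FPKM in the healthy mice and 134, 218 and 292 FPKM in the PBS mice (log2 difference -1.23 ± 0.27, adjusted p = 0.0131). Nefl, the light chain, had 470.3, 529 and 385 FPKM in H and 215, 256 and 332 FPKM in P (log2 difference -0.80 ± 0.17, adjusted p = 0.0123). H4 was lowest of the healthy mice and P74 highest of the PBS mice in both, so the groups were close at that edge. Stmn2, a regulator of axonal microtubules, had 81.2, 86.7 and 72.3 FPKM in H and 43.2, 53.1 and 64.5 FPKM in P (log2 difference -0.59 ± 0.13, adjusted p = 0.0142), and Stmn3 had 281, 369 and 374 FPKM in H and 158, 206 and 237 FPKM in P (log2 difference -0.77 ± 0.18, adjusted p = 0.0167). The general microtubule genes Map2 (-0.14) and Mapt (-0.04) did not pass. Of the genes of cholinergic identity 9 of 26 fell and 1 rose (median -0.52). Chodl, a marker of fast motor neurons, had 18.1, 14.8 and 7.19 FPKM in H and 1.76, 2.16 and 2.23 FPKM in P (log2 difference -2.15 ± 0.28, adjusted p = 0.000939). Slc18a3, the vesicular acetylcholine transporter, had 30.6, 24.5 and 13 FPKM in H and 5.07, 8.84 and 11.4 FPKM in P (log2 difference -1.31 ± 0.35, adjusted p = 0.03000), and Slc10a4, a vesicle protein of the same cells, had 21.6, 15.4 and 9.28 FPKM in H and 3.55, 5.58 and 6.95 FPKM in P (log2 difference -1.33 ± 0.33, adjusted p = 0.0229). Lhx4, a transcription factor of motor neurons, had 2.47, 2.22 and 1.09 FPKM in H and 0.535, 0.452 and 0.717 FPKM in P (log2 difference -0.87 ± 0.17, adjusted p = 0.00831). Chat, the enzyme that makes acetylcholine, had 16.6, 11.3 and 6.03 FPKM in H and 3.49, 5.48 and 8.66 FPKM in P, a difference of -0.81 ± 0.35 that missed the threshold (adjusted p = 0.137), and H4 lay among the PBS mice. Isl1, another factor of motor neurons, had 0.903, 0.992 and 0.511 FPKM in H and 0.703, 0.815 and 0.847 FPKM in P and did not pass. Crym, a thyroid hormone binding protein, rose against the rest of the list, with 0.141, 0.113 and 0.307 FPKM in H and 2.82, 1.58 and 0.919 FPKM in P (log2 difference 1.17 ± 0.22, adjusted p = 0.00653). Motor neuron markers had scores of 3.54, 3.32 and 2.62 in the healthy mice and 1.90, 2.27 and 2.53 in the PBS mice, and the low caudal Hox scores of H4 and P66 stand beside their values, with a part that was not tested. Kcnj14, a potassium channel of motor neurons, had 14.2, 12.7 and 6.98 FPKM in H and 2.48, 3.73 and 4.13 FPKM in P (log2 difference -1.43 ± 0.26, adjusted p = 0.00513), and Kirrel2, an adhesion molecule gene, had 3.34, 2.78 and 2.83 FPKM in H and 0.589, 0.5999 and 1.19 FPKM in P (log2 difference -1.17 ± 0.14, adjusted p = 0.000756). For the neurofilament list the members passing numbered 4 without H1 or P67, 0 without H2 or P66. For the cholinergic list the members passing numbered 4 without H1 or H2 or P66 or P67. The threshold was missed, at the log2 differences given, by Slc18a3 (-1.06) and Slc10a4 (-1.06) without H1, Nefm (-1.07), Nefl (-0.69), Stmn2 (-0.53), Stmn3 (-0.71), Slc18a3 (-1.22) and Slc10a4 (-1.30) without H2, Nefm (-0.93), Nefl (-0.65), Stmn2 (-0.44), Stmn3 (-0.61), Slc18a3 (-1.02) and Slc10a4 (-1.11) without P66 and Slc18a3 (-1.37) and Slc10a4 (-1.38) without P67. Further calls were missed by Nefm, Nefl, Stmn2, Slc18a3 and Slc10a4 with the muscle score as a covariate and by Nefm, Stmn2 and Slc18a3 with the 6 libraries alone. Passing in other fits was Chat (-1.17 without H4 and -1.22 with the caudal Hox covariate).

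Most synaptic genes did not pass, and some genes of vesicle release fell. Of 36 genes of vesicle release 8 fell (median -0.26), against 3.26% of all tested genes lower. Vamp1, a release protein of fast synapses, had 145, 166 and 120.2 FPKM in H and 56.8, 83.2 and 106 FPKM in P (log2 difference -0.84 ± 0.18, adjusted p = 0.0129), and Syp, synaptophysin, had 69.1, 86.1 and 77.9 FPKM in H and 33.7, 50.05 and 59.7 FPKM in P (log2 difference -0.72 ± 0.18, adjusted p = 0.0223). The order P74 above P67 above P66 held in 32 of the 36 genes. Syt1, a calcium sensor of release, had 14.4, 19.6 and 29.8 FPKM in H and 19.3, 22.2 and 23.6 FPKM in P and did not pass (0.08 ± 0.22). Of glutamate receptors and transporters of neurons 2 of 28 fell (median -0.18). Grin3b, a subunit that motor neurons carry, had 2.58, 2.07 and 1.18 FPKM in H and 0.528, 0.699 and 0.785 FPKM in P (log2 difference -0.79 ± 0.17, adjusted p = 0.0121), and Grin2c had 8.15, 6.68 and 6.21 FPKM in H and 3.68, 5.27 and 4.55 FPKM in P (log2 difference -0.55 ± 0.14, adjusted p = 0.0242). The main subunits Gria2 (0.09) and Grin1 (-0.34) did not pass. Of 29 GABA and glycine genes 2 rose and 1 fell (median -0.09), which is below the 12.2% of all tested genes for rises and close to the 3.26% for falls. Gabrb1 had 4.93, 5.49 and 5.56 FPKM in H and 7.61, 7.15 and 7.51 FPKM in P (log2 difference 0.41 ± 0.09, adjusted p = 0.0117), and Glrb, the glycine receptor beta chain, fell, with 78.1, 85.2 and 85.8 FPKM in H and 54.5, 55.5 and 73.1 FPKM in P (log2 difference -0.45 ± 0.13, adjusted p = 0.0334). The inhibitory enzyme genes Gad1 (-0.02) and Gad2 (0.17) did not pass. Of 35 neuropeptide and receptor genes only the somatostatin receptor gene Sstr3 passed (median -0.13), with 1.65, 1.58 and 1.52 FPKM in H and 0.708, 0.792 and 1.23 FPKM in P (log2 difference -0.45 ± 0.11, adjusted p = 0.0241). For vesicle release the members passing numbered 3 without H1, 0 without H2, 1 without P66 or P67, 17 without P74. The glutamate list had a median of -0.05 without P66. The neuropeptide list had a median of -0.24 without H1, 0.21 without H4 and -0.08 without P66. Some calls depended on 1 library, and those lost were Grin2c (-0.45) and Sstr3 (-0.43) without H1, Vamp1 (-0.73), Syp (-0.65), Grin3b (-0.74), Grin2c (-0.57), Glrb (-0.43) and Sstr3 (-0.45) without H2, Glrb (-0.43) without H4, Syp (-0.49), Grin3b (-0.73), Grin2c (-0.43), Glrb (-0.38) and Sstr3 (-0.37) without P66 and Syp (-0.77), Glrb (-0.39) and Sstr3 (-0.41) without P67. In other fits the threshold was missed by Vamp1, Syp, Grin3b, Grin2c, Gabrb1, Glrb and Sstr3 with the muscle score as a covariate and by Vamp1, Syp, Grin2c, Glrb and Sstr3 with the 6 libraries alone.

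Most genes of ion channels and calcium buffers did not pass. 6 of 39 potassium channel genes fell and 2 rose (median -0.16), where 3.26% of all tested genes fell and 12.2% rose. Kcnab2, a channel subunit of myelinated axons, had 116, 127 and 85.2 FPKM in H and 42.6, 66.5 and 78.7 FPKM in P (log2 difference -0.82 ± 0.20, adjusted p = 0.0207). Kcnn3, a calcium-activated channel, rose, with 1.71, 1.92 and 1.92 FPKM in H and 2.96, 3.15 and 2.61 FPKM in P (log2 difference 0.45 ± 0.10, adjusted p = 0.0126). Of sodium and calcium channels 2 of 27 fell (median -0.07). Scn4b, a beta subunit of sodium channels, had 110.2, 129 and 71.8 FPKM in H and 35.6, 53.5 and 73.8 FPKM in P (log2 difference -0.94 ± 0.24, adjusted p = 0.0246), with P74 above H4, and the pore genes Scn1a (-0.47) and Scn8a (-0.50) did not pass. Of calcium buffers and synucleins 6 of 17 fell (median -0.40). Pvalb, parvalbumin (ENSMUSG00000005716, chromosome 15, 78191114 to 78206400), had 217, 132 and 95.6 FPKM in the healthy mice and 41.1, 47.1 and 71.6 FPKM in the PBS mice (log2 difference -1.42 ± 0.27, adjusted p = 0.00707). The healthy mice were spread in Pvalb in the order of their muscle scores, and fast muscle also makes parvalbumin. Without H1 its difference was -1.10, and with the muscle score as a covariate -0.92, and it passed in both fits. Sncg, gamma-synuclein of motor and sensory neurons, had 69.3, 81.1 and 60.3 FPKM in H and 35.7, 38.4 and 37 FPKM in P (log2 difference -0.90 ± 0.14, adjusted p = 0.00233), and Calb2, calretinin of interneurons, had 128, 156 and 109.9 FPKM in H and 55.1, 75.7 and 93.6 FPKM in P (log2 difference -0.82 ± 0.18, adjusted p = 0.0141). Calb1 (0.09) did not pass. For the potassium channels the members passing numbered 4 without H1, 1 without H2 or P66, 2 without P67, 13 without P74. For the sodium and calcium channels the members passing numbered 0 without H1 or H2 or P66 or P67, 7 without H4, 6 without P74. For the calcium buffers the members passing numbered 2 without H2, 3 without P66. The potassium channels had a median of -0.07 without H4 and -0.09 without P66. The sodium and calcium channels had a median of -0.13 without H1, 0.04 without H4, 0.02 without P66 and -0.04 without P74. Calls lost, with the log2 difference that remained, were Kcnab2 (-0.77) and Scn4b (-0.87) without H1, Kcnab2 (-0.71), Scn4b (-0.76) and Calb2 (-0.69) without H2, Kcnab2 (-0.57), Kcnn3 (0.44), Scn4b (-0.67) and Calb2 (-0.62) without P66 and Kcnn3 (0.41) and Scn4b (-0.96) without P67. Calls were also lost by Kcnab2, Kcnn3, Scn4b and Calb2 with the muscle score as a covariate and by Kcnab2, Scn4b and Calb2 with the 6 libraries alone. Genes that gained a call were Scn1a (-0.62 without H4, -0.63 without P74, -0.64 with the caudal Hox covariate and -0.58 under median-ratio scaling) and Scn8a (-0.69 without H4, -0.68 without P74, -0.73 with the caudal Hox covariate and -0.60 under median-ratio scaling).

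Of axonal transport motors 6 of 35 fell (median -0.16), where 3.26% of all tested genes fell and 12.2% rose. Kif5a, a neuronal kinesin, had 336, 313 and 275 FPKM in H and 164, 199 and 233 FPKM in P (log2 difference -0.64 ± 0.14, adjusted p = 0.0119), and Dynll2, a dynein light chain, had 366, 546 and 469 FPKM in H and 202, 261 and 288 FPKM in P (log2 difference -0.87 ± 0.21, adjusted p = 0.0204). The ubiquitous kinesin gene Kif5b (-0.30) and the dynein heavy chain gene Dync1h1 (-0.15) did not pass. Axon injury and regeneration genes moved the other way, as 9 of 31 rose and 1 fell (median 0.22). Sprr1a, which injured neurons switch on, had 0.444, 0.135 and 0.646 FPKM in H and 6.69, 6.58 and 5.33 FPKM in P (log2 difference 2.37 ± 0.17, adjusted p = 4.83e-05), and Atf3, a transcription factor of injured neurons, had 3.21, 0.583 and 0.51 FPKM in H and 12, 11.3 and 8.71 FPKM in P (log2 difference 2.42 ± 0.33, adjusted p = 0.00124). H1 was highest of the healthy mice in Atf3 and still below P74. The PBS mice lay close together in Sprr1a. Of 14 markers of a stress and dissection response 5 rose, Fos, Egr1, Egr2, Jun and Junb, with scores of 2.31, 2.38 and 1.98 in the healthy mice and 2.62, 2.68 and 2.56 in the PBS mice, and their part in the result was not tested. The growth cone gene Gap43 (0.18) and the transcription factor gene Sox11 (0.40) did not pass. Uchl1, a neuronal deubiquitinase, fell, with 218, 237 and 233 FPKM in H and 125, 158 and 170.4 FPKM in P (log2 difference -0.61 ± 0.12, adjusted p = 0.00873). Among neurotrophic factors and receptors 9 of 39 rose and 3 fell (median 0.19). Igfbp5, a binding protein of insulin-like growth factors, had 13.3, 10.1 and 7.35 FPKM in H and 60.3, 53.5 and 34.1 FPKM in P (log2 difference 2.16 ± 0.24, adjusted p = 0.000536), and Fgf2 had 2.87, 2.69 and 3.3 FPKM in H and 17.6, 10.04 and 7.1 FPKM in P (log2 difference 1.58 ± 0.23, adjusted p = 0.00173). Fgf1, a factor of motor neurons, fell, with 93.9, 86 and 61.9 FPKM in H and 51, 52.4 and 58.4 FPKM in P (log2 difference -0.55 ± 0.15, adjusted p = 0.0329), and Bdnf (0.13) and Gdnf (0.25) did not pass. For the transport motors the members passing numbered 3 without H1, 1 without H2 or P66 or P67. For the neurotrophic list the members passing numbered 7 without H2, 5 without P66, 6 without P67. The injury list had a median of 0.36 without H4. The threshold was missed, at the log2 differences given, by Fgf1 (-0.43) without H1, Dynll2 (-0.74) and Fgf1 (-0.49) without H2, Dynll2 (-0.73) and Fgf1 (-0.51) without P66 and Dynll2 (-0.91) and Fgf1 (-0.53) without P67. Also below the threshold were Kif5a, Dynll2 and Fgf1 with the muscle score as a covariate and Kif5a and Fgf1 with the 6 libraries alone. Conversely, calls were gained by Kif5b (-0.42 under median-ratio scaling) and Sox11 (0.55 without H4 and 0.58 with the caudal Hox covariate).

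Many nuclear genes of the respiratory chain fell. Of complex I subunits 16 of 37 fell (median -0.58), and of complexes II to V 20 of 41 fell (median -0.55), with none higher, against 3.26% of all tested genes lower. Cycs, cytochrome c, had 37.9, 39.5 and 35.1 FPKM in H and 22.9, 24.6 and 28.3 FPKM in P (log2 difference -0.56 ± 0.11, adjusted p = 0.00953), and Ndufs8 had 60.1, 74.3 and 68 FPKM in H and 40.6, 46.4 and 48.1 FPKM in P (log2 difference -0.57 ± 0.13, adjusted p = 0.0175). Cox7c, a subunit of cytochrome oxidase, had 71.2, 105 and 101 FPKM in H and 55.3, 54.1 and 53.9 FPKM in P (log2 difference -0.74 ± 0.19, adjusted p = 0.0243), and Atp5k, a small subunit of the ATP synthase, had 22.9, 36.9 and 36.5 FPKM in H and 13.7, 15.7 and 14.2 FPKM in P (log2 difference -1.06 ± 0.27, adjusted p = 0.025). H1 was lowest of the healthy mice in Ndufs8, Cox7c and Atp5k, and the PBS mice lay close together in Cox7c. Of the tricarboxylic acid cycle and carrier genes 6 of 32 fell and 1 rose (median -0.23). Slc25a4, the nucleotide carrier of muscle and neurons, had 344, 316 and 286 FPKM in H and 203, 227 and 247 FPKM in P (log2 difference -0.48 ± 0.11, adjusted p = 0.0165), and Suclg2 rose, with 7.14, 6.57 and 7.33 FPKM in H and 12, 10.1 and 8.62 FPKM in P (log2 difference 0.48 ± 0.10, adjusted p = 0.0119). Among 30 glycolysis genes 2 rose and 1 fell (median -0.06), fewer rises than the 12.2% of all tested genes and about as many falls as the 3.26%. Hk3, a hexokinase of myeloid cells, had 0.518, 0.356 and 0.393 FPKM in H and 3.67, 2.3 and 1.84 FPKM in P (log2 difference 1.31 ± 0.19, adjusted p = 0.00189), Slc16a1, the lactate carrier of glia, had 17.2, 17.6 and 12.9 FPKM in H and 41.8, 30.1 and 23.9 FPKM in P (log2 difference 0.94 ± 0.18, adjusted p = 0.00657), and Eno2, neuronal enolase, fell, with 188, 191 and 172 FPKM in H and 88, 128 and 154 FPKM in P (log2 difference -0.61 ± 0.17, adjusted p = 0.0328). Neuron markers fell with these genes, with scores of 6.44, 6.60 and 6.41 in the healthy mice and 5.64, 5.997 and 6.27 in the PBS mice, 8 of 14 were lower, and their part was not tested. For complex I the members passing numbered 0 without H2 or P66, 3 without H4, 1 without P67. For complexes II to V the members passing numbered 1 without H2 or P66 or P67, 6 without H4. For the tricarboxylic acid cycle the members passing numbered 3 without H1, 0 without H2, 1 without P66 or P67, 13 without P74. Some calls depended on 1 library, and those lost were Slc25a4 (-0.42) and Eno2 (-0.59) without H1, Ndufs8 (-0.50), Cox7c (-0.63), Atp5k (-0.95), Slc25a4 (-0.48), Suclg2 (0.44) and Eno2 (-0.58) without H2, Cox7c (-0.66) and Atp5k (-0.96) without H4, Ndufs8 (-0.50), Cox7c (-0.75), Atp5k (-1.02), Slc25a4 (-0.41) and Eno2 (-0.38) without P66 and Cox7c (-0.73), Atp5k (-1.11), Slc25a4 (-0.49) and Eno2 (-0.65) without P67. Further calls were missed by Cycs, Ndufs8, Slc25a4, Suclg2 and Eno2 with the muscle score as a covariate and by Slc25a4, Suclg2 and Eno2 with the 6 libraries alone.

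Genes along the cholesterol synthesis pathway fell. 19 of 36 fell and 1 rose (median -0.42), against 3.26% of all tested genes lower. Hmgcs1, an early enzyme (GRCm38, ENSMUSG00000093930, chromosome 13, 119690379 to 119708260), had 59.1, 63.7 and 79.4 FPKM in the healthy mice and 36.9, 35.7 and 41.4 FPKM in the PBS mice (log2 difference -0.80 ± 0.12, adjusted p = 0.00216). Stard4, a sterol carrier, had 8.43, 9.68 and 7.88 FPKM in H and 4.52, 4.95 and 5.28 FPKM in P (log2 difference -0.70 ± 0.10, adjusted p = 0.00179). Fdft1, squalene synthase, had 24.6, 26.4 and 25.7 FPKM in H and 13.6, 17.4 and 18.7 FPKM in P (log2 difference -0.61 ± 0.10, adjusted p = 0.00308), and Acat2, a thiolase, had 25.2, 26.4 and 25.1 FPKM in H and 14.9, 17.6 and 19.3 FPKM in P (log2 difference -0.55 ± 0.09, adjusted p = 0.00417). In each gene all healthy mice were above all PBS mice, and the healthy mice were tightly grouped in Fdft1 and Acat2. The regulators Srebf2 (-0.26) and Scap (0.02) did not pass. Srebf1, the regulator of fatty acid synthesis, rose, with 16, 13.1 and 12.3 FPKM in H and 20.1, 20.7 and 19.5 FPKM in P (log2 difference 0.52 ± 0.13, adjusted p = 0.0247). Oligodendrocytes make much of the cord's cholesterol, and their markers had scores of 7.32, 7.37 and 7.55 in the healthy mice and 7.41, 7.27 and 7.30 in the PBS mice, with 1 of 12 higher and 1 lower. Neuron markers, of which 8 of 14 fell, had scores of 6.44, 6.60 and 6.41 in the healthy mice and 5.64, 5.997 and 6.27 in the PBS mice, and the part of either cell type in the result was not tested. CCAAT, the NF-Y motif, was in 21 of 25 promoters of this list (84%), against 42.4% of tested genes, 41.1% of all genes and 40.0% of the genes that fell, and TCACNCCAC, a sterol response motif, in 1 of 25 against 1.41%. Hmgcs1 (chr13:119690101-119690400, plus strand) holds both, and Mvd (chr8:122443373-122443672, minus strand), which makes isopentenyl diphosphate, holds CCAAT on both strands. Capitals mark CCAAT or its complement ATTGG and, in Hmgcs1, TCACCCCAC.
Hmgcs1: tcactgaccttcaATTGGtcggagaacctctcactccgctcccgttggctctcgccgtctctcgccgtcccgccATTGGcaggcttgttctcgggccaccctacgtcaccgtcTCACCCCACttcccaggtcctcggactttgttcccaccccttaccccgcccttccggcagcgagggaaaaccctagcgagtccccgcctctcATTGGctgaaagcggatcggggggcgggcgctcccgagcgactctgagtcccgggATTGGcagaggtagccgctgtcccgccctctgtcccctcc
Mvd: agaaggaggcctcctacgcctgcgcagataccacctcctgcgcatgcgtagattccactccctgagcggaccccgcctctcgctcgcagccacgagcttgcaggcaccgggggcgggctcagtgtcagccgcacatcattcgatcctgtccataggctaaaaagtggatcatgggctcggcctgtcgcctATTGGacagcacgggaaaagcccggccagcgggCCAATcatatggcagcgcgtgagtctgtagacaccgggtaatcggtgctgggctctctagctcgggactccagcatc
Mvd had 12.1, 11.2 and 10.4 FPKM in H and 4.71, 6.45 and 7.97 FPKM in P (log2 difference -0.75 ± 0.14, adjusted p = 0.00592). For cholesterol synthesis the members passing numbered 12 without H2 or P67, 11 without P66. Calls lost, with the log2 difference that remained, were Srebf1 (0.49) without H2, Srebf1 (0.44) without H4, Srebf1 (0.52) without P66 and Srebf1 (0.50) without P67. Srebf1 also missed the threshold under median-ratio scaling.

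Some iron and amino acid stress genes rose, where 12.2% of all tested genes rose, and few redox enzymes changed. Of iron and heme genes 7 of 24 rose (median 0.20). Hmox1, which opens heme, had 3.78, 3.86 and 3.04 FPKM in H and 24.5, 14.7 and 10.2 FPKM in P (log2 difference 1.86 ± 0.25, adjusted p = 0.00117), and Ftl1, the light chain of ferritin, had 9.03, 7.25 and 9.41 FPKM in H and 45.7, 33.8 and 19.7 FPKM in P (log2 difference 1.76 ± 0.28, adjusted p = 0.00299). The heavy chain, Fth1, had 5789.5, 6874 and 10676 FPKM in H and 6970.3, 6756 and 5204 FPKM in P and did not pass (-0.26 ± 0.21). Ferritin genes have many near-identical copies, and their division of reads is uncertain. Of superoxide, peroxide and thiol enzymes 3 of 30 rose and 1 fell (median 0.02), near the shares of all genes. Prdx6, an astrocytic peroxiredoxin, had 51.4, 55.8 and 59.4 FPKM in H and 209.8, 157 and 109.8 FPKM in P (log2 difference 1.45 ± 0.19, adjusted p = 0.00114), and Prdx5, a mitochondrial one, fell, with 61.5, 77.8 and 75.6 FPKM in H and 46, 52.8 and 55.8 FPKM in P (log2 difference -0.46 ± 0.14, adjusted p = 0.0497). Sod1, the superoxide dismutase mutated in some familial ALS, had 149, 219.5 and 244 FPKM in H and 140.2, 161 and 152 FPKM in P, a difference of -0.41 ± 0.23 that missed the threshold (adjusted p = 0.231), with H1 among the PBS mice. The sources used here do not say whether the model carries a Sod1 transgene. In the amino acid stress response 7 of 33 rose (median 0.27). Nupr1, a stress-induced chromatin protein, had 0.853, 0.759 and 0.529 FPKM in H and 11.1, 7.61 and 3.46 FPKM in P (log2 difference 2.18 ± 0.37, adjusted p = 0.00409), and Ddit3, the factor CHOP, had 12.2, 13.2 and 12.4 FPKM in H and 18.6, 19.4 and 17.5 FPKM in P (log2 difference 0.52 ± 0.10, adjusted p = 0.00839). Trib3 had 0.196, 0.257 and 0.272 FPKM in H and 1.01, 1.003 and 0.996 FPKM in P (log2 difference 0.69 ± 0.16, adjusted p = 0.0182), with nearly equal PBS values. The upstream factor gene Atf4 (0.06) and its target Asns (-0.17) did not pass. For iron and heme the members passing numbered 4 without H2 or P66 or P67. For the redox enzymes the members passing numbered 2 without H2 or P67, 1 without P66, 9 without P74. For amino acid stress the members passing numbered 2 without P66 or P67. The threshold was missed, at the log2 differences given, by Prdx5 (-0.40) and Trib3 (0.70) without H2, Prdx5 (-0.42) without H4, Prdx5 (-0.39) and Trib3 (0.69) without P66 and Prdx5 (-0.48) and Trib3 (0.69) without P67. In other fits the threshold was missed by Prdx5, Ddit3 and Trib3 with the muscle score as a covariate and by Prdx5 with the 6 libraries alone.

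Among genes that passed and did not overlap between the groups, the largest falls were in haemoglobin genes of red cells. Skeletal muscle markers differed by about as much (median -2.54), and none of the 11 passed, although without H4 Acta1 did (-4.80). Hba-a1 had 482, 162 and 1014 FPKM in the healthy mice and 41, 107 and 60.3 FPKM in the PBS mice (log2 difference -2.72 ± 0.61, adjusted p = 0.0167). The healthy values spanned a wide range, with H2 close to P67. Hbb-bs had 628, 195 and 1275 FPKM in H and 70.6, 164 and 96.5 FPKM in P (log2 difference -2.36 ± 0.62, adjusted p = 0.02996) and Hbb-bt had 122, 37 and 237 FPKM in H and 10.7, 25.3 and 18.3 FPKM in P (log2 difference -2.52 ± 0.62, adjusted p = 0.0244). These genes are near-identical copies, and the amount of blood left in a piece was not measured. Sh3bgr and Smyd1 also fell among the 12 largest, and both are genes of heart or skeletal muscle. Sh3bgr had 37, 26.8 and 19.1 FPKM in H and 6.84, 9.61 and 13.5 FPKM in P (log2 difference -1.38 ± 0.24, adjusted p = 0.00415), and Smyd1 had 10, 5.14 and 2.62 FPKM in H and 1.08, 0.989 and 2.38 FPKM in P (log2 difference -1.38 ± 0.33, adjusted p = 0.0188). Both ranked H1, H2 and H4 as the muscle score did. P74, with a muscle score of 3.29 against 1.53 in H4, was below H4 in both genes. With the muscle score as a covariate the differences of Sh3bgr and Smyd1 were -0.91 and -0.68, and both genes still passed. The part of muscle RNA in them was not tested further. Some calls depended on 1 library, and those lost were Hbb-bs (-2.25) without H1, Smyd1 (-1.39) without H2, Hbb-bs (-1.74) without H4, Hba-a1 (-2.40), Hbb-bs (-2.09), Hbb-bt (-2.20) and Smyd1 (-1.27) without P66, Smyd1 (-1.24) without P67 and Hbb-bs (-2.31) without P74. Calls were also lost by Hbb-bs and Hbb-bt with the muscle score as a covariate and by Hba-a1, Hbb-bs, Hbb-bt and Smyd1 with the 6 libraries alone.

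Of 15180 tested protein-coding genes 2072 rose and 537 fell, of 621 intergenic noncoding RNA genes 27 rose and 19 fell, and of 632 antisense genes 30 rose and 3 fell. The strand setting of the counting is not given, so antisense values cannot be told apart from those of their partners. 145 genes were listed at 0 in every healthy mouse and above 0 in every PBS mouse, of which 8 had enough reads to be tested, and 71 showed the reverse, of which 1 was tested. Tnfsf11, the ligand RANKL, was listed at 0 in H and had 0.804, 0.644 and 0.0789 FPKM in P66, P67 and P74. Mcoln3, a lysosomal cation channel, was listed at 0 in H and had 0.652, 0.432 and 0.221 FPKM in P. Both were picked for this pattern and had enough reads only through libraries other than the healthy ones. Their tests would restate that choice and are not used here. P74 held 3 recovered reads of Tnfsf11, and no fold is given against values of 0.

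**Figure D5:**
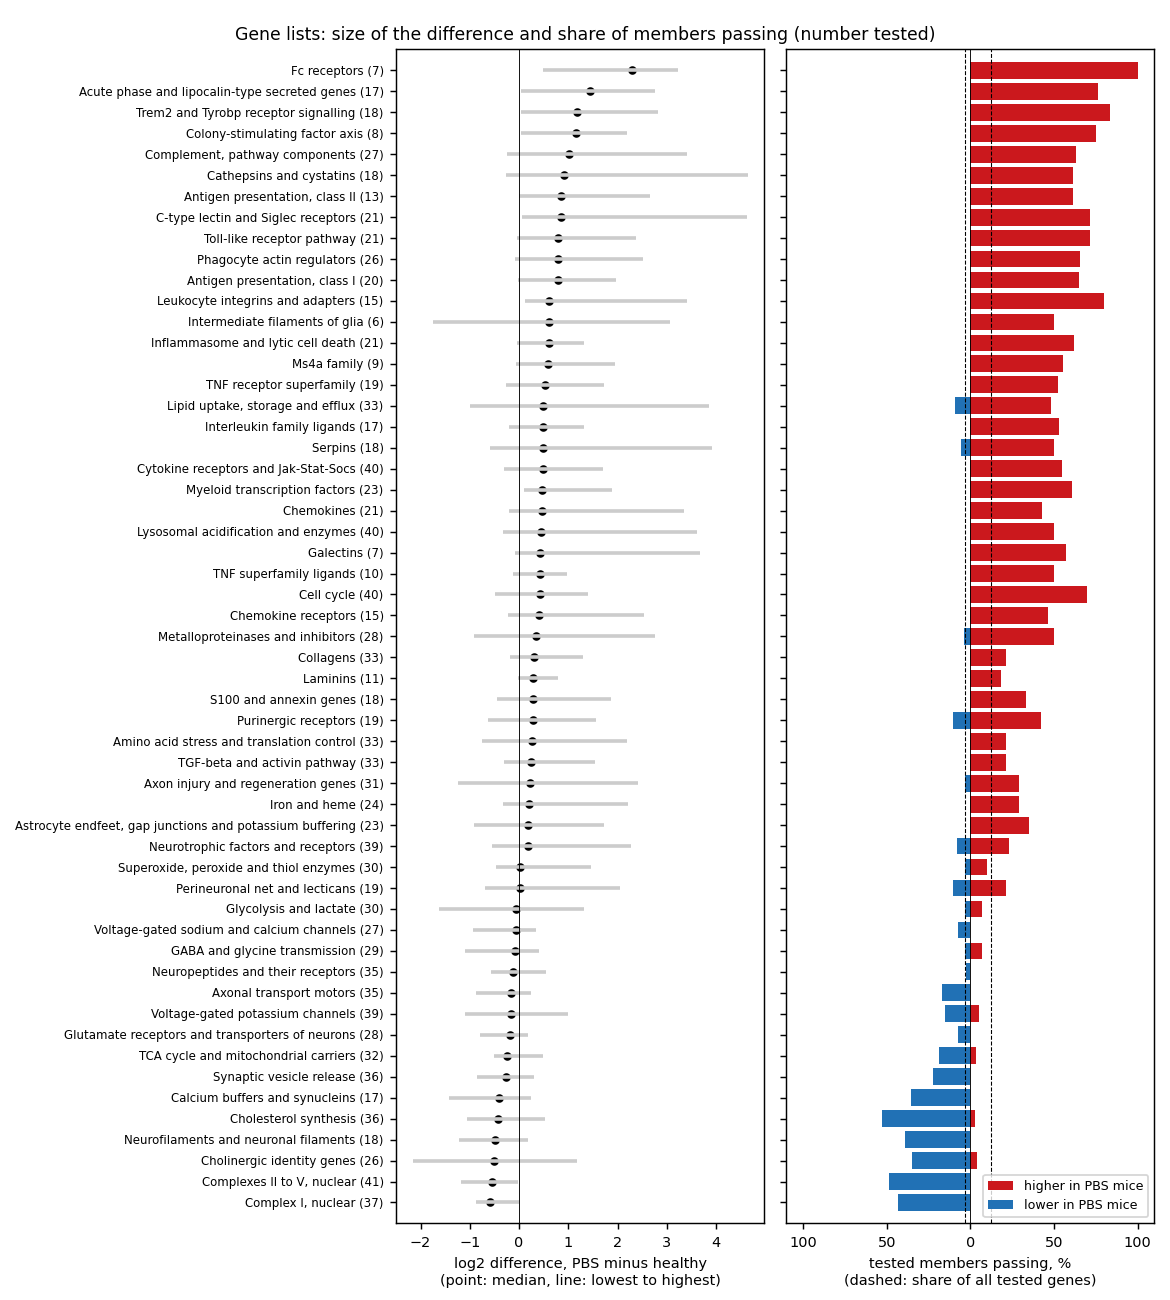
Left, median (point) and range (line) of the log2 differences of the tested members of each gene list. Right, share of tested members that passed higher (red) or lower (blue), with dashed lines at the 12.2% and 3.26% of all tested genes. Fc receptors reach 100% higher, and complex I and complexes II to V have no member higher.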

How the data were processed

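Per the labels' protocols, TRIzol was used on lumbar cord, oligo(dT) beads selected poly(A) RNA, and the second strand was marked. HISAT2, featureCounts, cutadapt and GRCm38 were used per the submitters' processing notes, and the sources used here give no versions or strand setting. The authors deposited FPKM values in 4 tables, 1 per group, with each library scaled to its own total. FPKM times exon length gave the reads behind each value: among values of up to 50 multiples of the smallest step, 95.2% to 95.7% were within 0.02 of a whole multiple, and the rest were kept unrounded.

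Genes with at least 10 such reads in at least 3 libraries were tested (18118), and 15788 were set aside. limma 3.58.1 in R 4.3.3, with trended and robust variance, was fitted to log2(FPKM + 1) of all 12 libraries with 1 mean per group, with Benjamini-Hochberg adjustment. The method was tested on simulated data. Members and gene lists were chosen with earlier results of these data known. Genes named are the 12 largest rises and falls, the 4 members of smallest adjusted p per list, members that did not pass or moved against their list, 6 that separate P74, and Sod1. C1qa, C1qc, Mvd, Atp6v0d2 and P2ry12 were added after their values were seen. Some single genes are not reported here. The alternatives were another pseudocount, filter, scaling and variance model, the 6 libraries alone, covariates and each library left out.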

Additional observations from a re-analysis of the deposited data

How the results depend on the processing

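No paired analysis was possible because the mouse numbers of the groups are all different. Of 825 recomputed list medians 727 stayed within 1 SD and 98 moved; the cause was not tested. Of 172 named genes that passed, 76 kept their call under all 15 alternatives and 0 changed direction. The losses given above by gene are not complete. Under median-ratio scaling Nes, P2ry12 and Srebf1 lost their calls, and with the caudal Hox covariate Nes and Plin3 did. With limma-voom Nes, Ccn1, Ccn5 and Hbb-bt lost theirs, and with a filter of 0.5 FPKM P2rx6, P2ry12, Prdx5 and Tnf. Losses in the remaining fits are mostly not listed by gene. Without a filter on low values, the counts were 1444 genes that passed, 1206 genes higher and 238 genes lower and list medians became 0.091 (interleukins), 0.098 (TNF ligands), 0.54 (complement) and 0.92 (acute phase). Under median-ratio scaling, the counts were 1396 genes higher and 1230 genes lower and list medians became 0.079 (endfeet), -0.085 (perineuronal net), -0.27 (axonal transport motors), -0.66 (complexes II to V), -0.070 (redox enzymes) and 0.16 (amino acid stress). With only the 6 libraries of P and H, the counts were 1471 genes that passed, 1228 genes higher and 243 genes lower. With the caudal Hox score as a covariate, the counts were 1142 genes lower and list medians became 0.73 (chemokines), 0.47 (collagens), 0.10 (perineuronal net), -0.70 (neurofilaments), 0.34 (axon injury) and 0.21 (amino acid stress). With the muscle score as a covariate, chosen after seeing the data, the counts were 1041 genes that passed, 849 genes higher and 192 genes lower and list medians became -0.19 (cholinergic genes), -0.20 (sodium and calcium channels) and 0.20 (amino acid stress). Without H1 and H4 together, also chosen after seeing the data, the counts were 289 genes that passed, 249 genes higher and 40 genes lower and list medians became -0.67 (complexes II to V) and 0.17 (amino acid stress). With a pseudocount of 0.1, list medians became 1.78 (Trem2 and Tyrobp), 1.505 (Toll-like receptors), 1.87 (lectins), 1.69 (Ms4a family), 1.15 (integrins), 0.41 (purinergic receptors), 1.25 (cathepsins), 0.80 (lipid), 0.72 (galectins), 1.21 (class I), 1.56 (class II), 1.49 (chemokines), 1.17 (chemokine receptors), 0.75 (interleukins), 0.70 (cytokine receptors), 0.75 (TNF receptors), 0.83 (TNF ligands), 1.71 (complement), 1.30 (inflammasome), 0.36 (TGF-beta), 0.88 (cell cycle), 0.77 (serpins), 2.25 (acute phase), 0.53 (collagens), 0.45 (laminins) and 0.48 (metalloproteinases). With limma-voom on recovered reads, list medians became 1.96 (Trem2 and Tyrobp), 2.03 (Toll-like receptors), 2.21 (lectins), 3.05 (Ms4a family), 1.18 (integrins), 0.62 (purinergic receptors), 1.26 (cathepsins), 0.82 (lipid), 0.76 (galectins), 1.26 (class I), 1.67 (class II), 2.18 (chemokines), 1.31 (chemokine receptors), 0.86 (interleukins), 0.77 (cytokine receptors), 0.79 (TNF receptors), 0.97 (TNF ligands), 1.77 (complement), 1.60 (inflammasome), 0.39 (TGF-beta), 0.98 (cell cycle), 0.78 (serpins), 2.37 (acute phase), 0.61 (collagens), 0.49 (laminins), 0.53 (metalloproteinases) and 0.34 (axon injury). With a filter of 0.5 FPKM, list medians became 1.02 (integrins), 1.17 (class II), 0.78 (chemokines), 0.59 (chemokine receptors), 1.32 (complement), 0.80 (inflammasome) and -0.092 (perineuronal net). Leaving out 1 library at a time gave counts of 933 to 3535 (genes that passed), 804 to 2621 (genes higher) and 129 to 914 (genes lower), and list medians of 0.35 to 0.76 (Ms4a family), 0.17 to 0.41 (purinergic receptors), 0.35 to 0.74 (chemokines), 0.32 to 0.54 (interleukins), 0.40 to 0.58 (TNF receptors), 0.35 to 0.48 (TNF ligands), -0.043 to 0.089 (perineuronal net), -0.21 to -0.054 (glutamate), -0.20 to -0.068 (potassium channels), -0.13 to 0.042 (sodium and calcium channels), -0.24 to 0.21 (neuropeptides), 0.23 to 0.36 (axon injury) and 0.18 to 0.28 (amino acid stress). Differences of 29 named genes that did not pass changed sign under some alternative. With the muscle score as a covariate, these became 0.018 (Acta1), -0.042 (Bdnf), -0.49 (Calb1), 0.057 (Cd59a), 0.013 (Cd80), 0.38 (Des), 0.14 (Dync1h1), -0.080 (Gap43), -0.29 (Gria2), -0.13 (Il34), 0.14 (Isl1), -0.12 (Psme2), -0.27 (Syt1) and 0.15 (Tlr5). Under median-ratio scaling, these became -0.049 (Atf4), -0.0041 (Calb1), -0.067 (Dok3), -0.019 (Gria2), -0.012 (Hp), -0.054 (Il34), -0.042 (Kcnj10), -0.065 (Psme2), -0.082 (Scap) and -0.027 (Syt1). Without H1 and H4 together, these became -0.047 (Bdnf), 0.11 (Cfp), -0.023 (Ciita), 0.018 (Gad1), 0.036 (Il18), -0.036 (Kcnj10), -0.0024 (Psme2) and 0.028 (Tlr5). With the caudal Hox score as a covariate, these became 0.061 (Cd80), -0.0065 (Ciita), -0.074 (Dok3), 0.10 (Gad1), -0.75 (Hoxd10), -0.062 (Hp) and 0.076 (Il18). With a pseudocount of 0.1, these became 0.018 (Isl1). With limma-voom on recovered reads, these became 0.030 (Isl1) and 0.021 (Tlr5). Leaving out 1 library at a time, they ranged over -0.022 to 0.21 (Bdnf), -0.27 to 0.47 (Calb1), -0.17 to 0.010 (Cd59a), -0.084 to 0.039 (Cd80), -0.025 to 0.15 (Ciita), -0.23 to 0.0063 (Cx3cl1), -0.058 to 0.29 (Cxcl12), -0.078 to 0.14 (Dok3), -0.18 to 0.16 (Gad1), -0.11 to 0.33 (Gria2), -0.096 to 0.21 (Hp), -0.15 to 0.099 (Il18), -0.097 to 0.21 (Il34), -0.12 to 0.076 (Isl1), -0.030 to 0.13 (Kcnj10), -0.066 to 0.014 (Mapt), -0.0035 to 0.19 (Mitf), -0.16 to 0.059 (Psmb10), -0.068 to 0.13 (Psme2), -0.015 to 0.083 (Scap), -0.15 to 0.34 (Syt1) and -0.12 to 0.091 (Tlr5). At this depth the median half-width of a 95% interval was 0.253 on the log2 scale, so smaller differences were mostly not detectable, and 5923 genes had an unadjusted p under 0.05. Intervals rest on the spread within groups of 3 mice, pooled over all 12 libraries and moderated across genes, and on no other mice.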
